A study of Mus musculus with 30 samples.

Results

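The genes described here encode 10 subunits of the vacuolar proton pump (V-ATPase), picked by symbol from a table of gene counts: Atp6v0a1, Atp6v0b, Atp6v0c, Atp6v0d1 and Atp6v0d2 of the membrane sector V0, and Atp6v1a, Atp6v1b2, Atp6v1c1, Atp6v1e1 and Atp6v1h of the cytosolic sector V1. All 10 were found among the 30538 genes of the table, and all 10 passed the filter on low counts that kept 13173 genes for testing. The RNA came from cultured mouse bone marrow-derived macrophages (BMDM), cells grown out from marrow precursors, and polyA RNA was sequenced in 30 libraries, 3 in each of 10 groups. The labels number the mice within each genotype, and this number was taken as the animal. Groups of the same genotype thus share their 3 mice. The compounds 25-hydroxycholesterol (25HC), itraconazole and OSW-1 all bind the oxysterol-binding protein OSBP, a carrier of cholesterol between membranes, and Ch25h encodes the enzyme that makes 25HC. Ch25h-/- macrophages, which received no compound, formed 2 groups, with lipopolysaccharide (LPS) at 10 ng/mL and without it. Wild-type C57BL/6 macrophages formed the other 8 groups: pretreated with OSW-1 at 0.3 µM, 25HC at 5 µM or itraconazole at 1 µM for 18 h, or untreated, each with LPS at 10 ng/mL and without it. The stimulation time is labelled 18, with no unit, in LPS groups and 0 in unstimulated groups, so LPS and time in culture cannot be told apart. Whether untreated cells received a vehicle, and whether the compounds remained in the culture with LPS, is not given in the sources used here.

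The V-ATPase hydrolyses ATP in its V1 head and uses the rotation this drives to move protons through V0 into lysosomes, endosomes and phagosomes. The acid it makes is needed by lysosomal hydrolases, and macrophages rely on it to digest what they engulf. The pump also serves as a docking site for the Ragulator complex in amino acid sensing, and its assembly from V0 and V1 is reversible. Several subunits exist as isoforms from separate genes, which differ in the membranes and tissues where they are used.

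Many lysosomal genes carry near their start an E-box with the core CACGTG, the letters read by TFEB and related basic helix-loop-helix factors, so promoter windows were searched for it. RefSeq windows on GRCm38.p6, from 250 bases before to 50 bases after a start, were held for 6 of the 10 genes (Atp6v0a1, Atp6v0b, Atp6v0c, Atp6v0d1, Atp6v1a and Atp6v1e1, 8 windows in all). CACGTG, which reads the same on both strands, was in windows of 3 of these 6 genes, against 7.15% of all 32851 RefSeq windows and 8.09% of the 27025 genes with a window, and in those of 1 of 13 other V-ATPase subunits (7.69%). The longer TCACGTGA, which contains it, was in the windows of Atp6v0d1 and Atp6v1a, of 1 of the 13 other subunits and in 0.974% of all windows. The 3 windows with a match are shown, so that the place of the motif and its neighbourhood can be read. They lie at chr4:117887280-117887579 for Atp6v0b, chr8:105566015-105566314 for Atp6v0d1 and chr16:44139210-44139509 for Atp6v1a, all on the minus strand and printed 5′ to 3′ with CACGTG in capitals.
Atp6v0b: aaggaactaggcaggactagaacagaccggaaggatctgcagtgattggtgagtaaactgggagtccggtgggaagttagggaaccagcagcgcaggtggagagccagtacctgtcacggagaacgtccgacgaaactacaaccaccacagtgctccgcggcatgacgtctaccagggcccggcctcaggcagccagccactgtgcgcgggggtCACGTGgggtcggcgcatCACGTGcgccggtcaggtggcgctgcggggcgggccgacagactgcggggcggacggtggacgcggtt
Atp6v0d1: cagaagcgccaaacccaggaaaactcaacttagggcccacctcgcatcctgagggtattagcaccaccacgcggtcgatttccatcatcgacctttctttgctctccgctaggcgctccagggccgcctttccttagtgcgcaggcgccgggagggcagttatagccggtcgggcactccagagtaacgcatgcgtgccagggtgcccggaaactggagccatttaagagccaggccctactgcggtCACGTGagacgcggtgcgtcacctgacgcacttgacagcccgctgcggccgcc
Atp6v1a: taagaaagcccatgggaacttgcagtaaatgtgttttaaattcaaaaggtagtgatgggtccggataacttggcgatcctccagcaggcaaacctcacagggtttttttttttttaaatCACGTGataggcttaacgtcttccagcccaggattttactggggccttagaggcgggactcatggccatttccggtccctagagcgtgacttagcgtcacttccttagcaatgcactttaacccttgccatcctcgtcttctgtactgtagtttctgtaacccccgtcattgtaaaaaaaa
The first capital lies 36 and 18 bases before the RefSeq start in Atp6v0b, 3 bases before it in Atp6v0d1 and 131 bases before it in Atp6v1a. By GENCODE vM21, Atp6v1a begins at chr16:44139705, so its window and match lie inside the gene as annotated there. Atp6v0a1 begins at chr11:101009452, so its window (chr11:101010148-101010447) lies inside that gene too. For these 2 genes the window may therefore not be the main promoter. A match is only a run of letters, and no factor's binding was measured here.

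The libraries held 23656860 to 43922154 counts, and the 10 genes took 0.211 to 0.406% of them. Levels are given in CPM, the count scaled to a common library size with TMM factors. These factors were 0.796, 0.858 and 0.905 in untreated wild-type libraries with LPS, and 1.09, 1.09 and 1.05 in those without. Of unscaled counts, the 10 genes took 0.280, 0.270 and 0.225% with LPS and 0.393, 0.382 and 0.367% without. The direction of small changes with LPS therefore depends on this scaling. Ch25h, the deleted gene, had 0.277, 0 and 0.0768 CPM in unstimulated Ch25h-/- libraries, against 2.22, 2.24 and 1.42 CPM in untreated wild-type libraries. The 6 macrophage markers read (Csf1r, Cd68, Itgam, Mertk, Fcgr1 and Lyz2) were detected in all 30 libraries. Their summed level was 3307 to 4859 CPM in OSW-1-pretreated LPS libraries and 18211 to 28600.3 CPM in untreated LPS libraries. Every count was even in 20 libraries. The 3 libraries of OSW-1 with LPS and the 6 of Ch25h-/- held odd and even counts in near-equal shares and fewer counts in total as deposited (23656860 to 29630084), and the mouse 3 library of unstimulated 25HC was mixed. Whether the even counts are doubled ones is not given in the sources used here. If they are, the order of the totals would be reversed. For OSW-1 with LPS and for genotype, this difference in totals and odd counts between libraries cannot be told apart from the group. In bulk RNA, fewer cells of a type and less RNA per cell cannot be told apart either.

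Levels of different genes were compared per kilobase of exon. In untreated wild-type macrophages Atp6v0b, a proteolipid of the rotor ring, was the highest of the 10 at 175 ± 10 CPM per kb, followed by the catalytic subunit Atp6v1a at 160 ± 12 CPM per kb (SD, n = 3 here and below). Atp6v0d1 had 133 ± 9.0 and Atp6v1b2 115 ± 3.1 CPM per kb. The libraries of Atp6v0b (187, 166 and 172 CPM per kb) and Atp6v1a (172, 160 and 149) overlapped, while those of Atp6v0d1 (142, 132 and 124) and Atp6v1b2 (113, 114 and 119) did not. Atp6v0a1 (75.4 ± 3.7 CPM per kb), Atp6v0c (64.8 ± 1.5), Atp6v0d2 (50.4 ± 16.5), Atp6v1e1 (43.9 ± 1.1) and Atp6v1c1 (37.9 ± 3.4) followed, and Atp6v1h was the lowest at 10.7 ± 1.1 CPM per kb. In this order Atp6v0d2, at 37.6, 44.6 and 69.1 CPM per kb, overlapped both neighbours. Exons of Atp6v0b, Atp6v1e1 and Atp6v1h overlap an exon of a gene on the opposite strand by 243, 32 and 127 bases (Gm12841, Slc25a18 and Rgs20). The strand setting of the counting is not given in the sources used here, so their counts may hold reads of these neighbours.

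**Figure D1:**
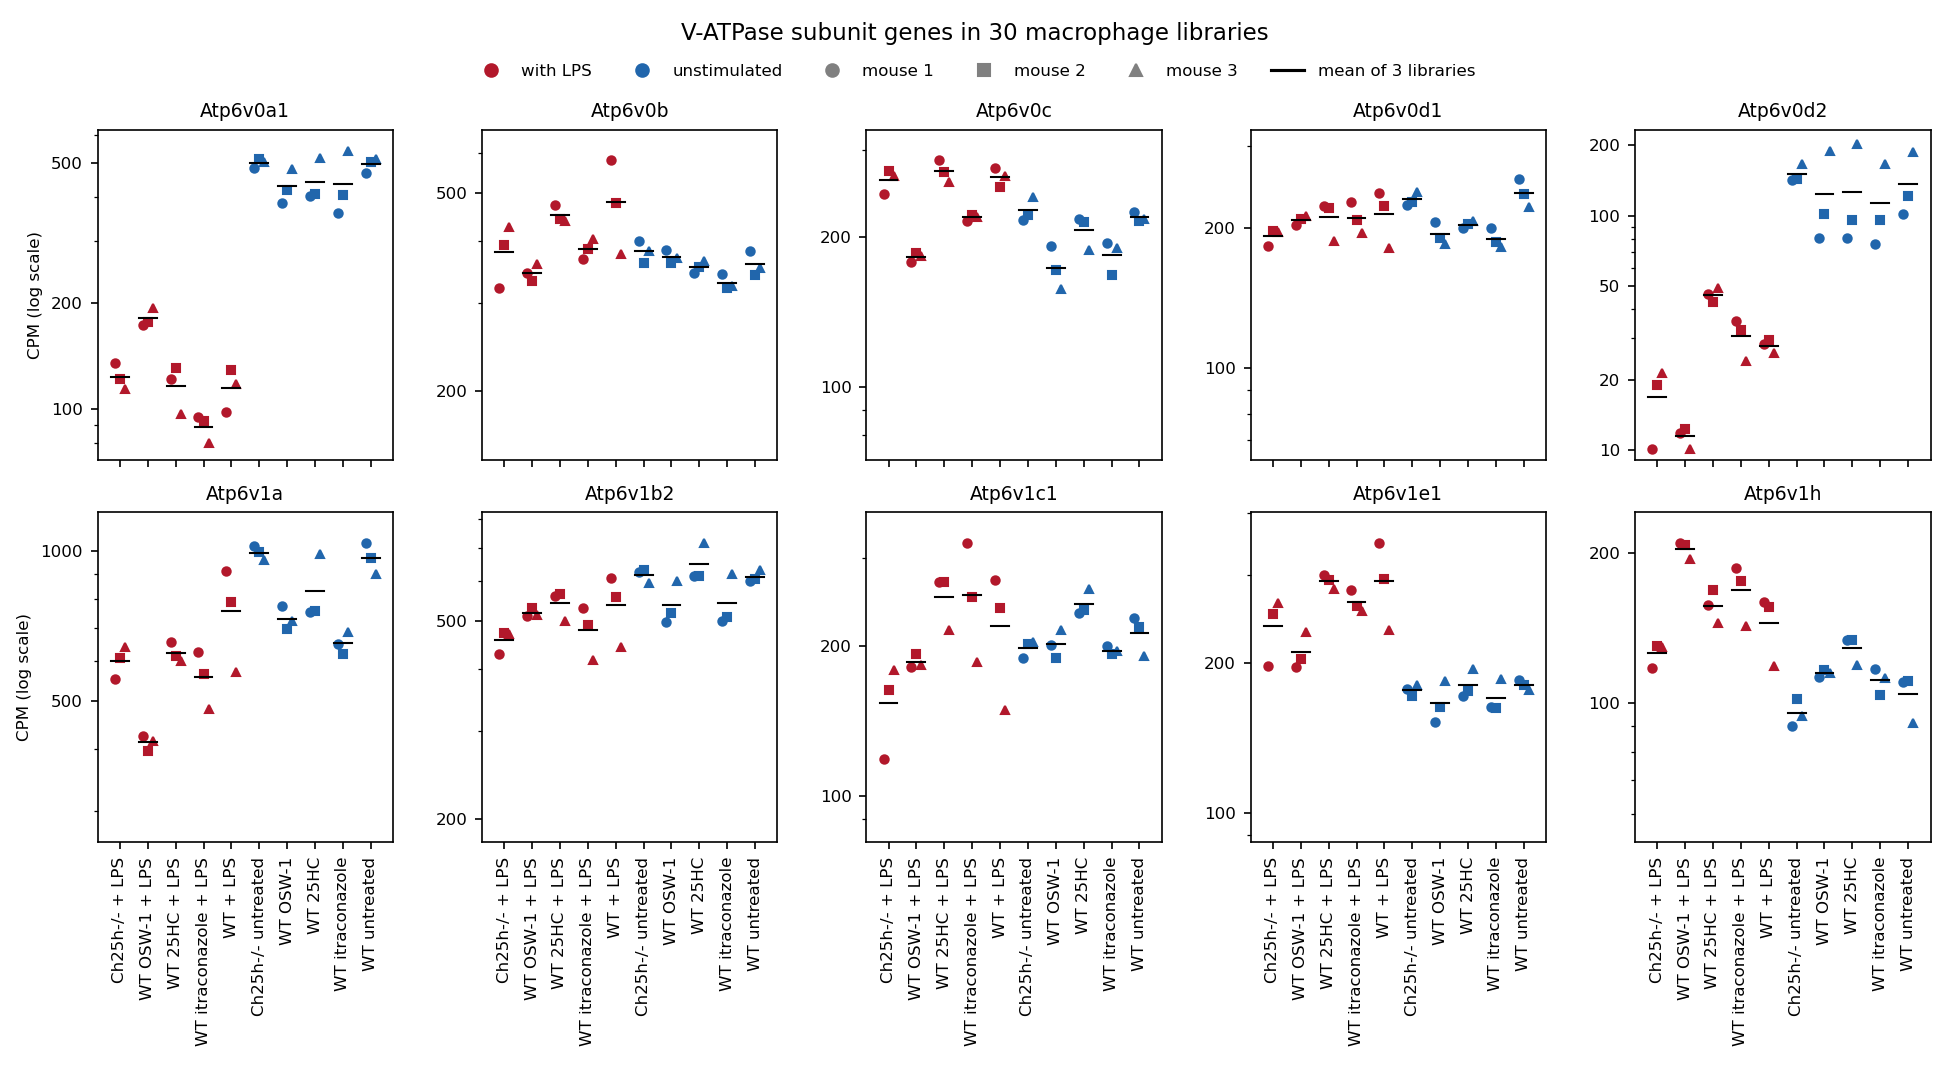
Level of each of the 10 V-ATPase genes in CPM (log scale, a separate range for each gene) in all 30 libraries, with groups along the x axis, LPS groups in red left of unstimulated groups in blue, a marker shape for each mouse and a line at the mean of 3. Atp6v0a1 and Atp6v0d2 separate every LPS library from every unstimulated library, and Atp6v1h is highest in OSW-1-pretreated LPS libraries (195 to 210 CPM).

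LPS moved the V0 genes of untreated wild-type macrophages in opposite directions. Atp6v0a1, the a1 isoform of the subunit that holds the stalks and forms the proton path, had 98.1, 130 and 118 CPM with LPS, against 467, 502 and 514 CPM without. All 3 LPS libraries lay far below all 3 unstimulated ones, and the fitted level fell by 2.10 ± 0.14 on the log2 scale (SE, adjusted p = 2.67e-12), a 4.29-fold decrease. Atp6v0d2, the d isoform known from osteoclasts and from fusing macrophages, had 28.4, 29.6 and 26.0 CPM with LPS, against 102, 121 and 188 CPM without. Again the groups did not overlap, while the unstimulated libraries were much more widely spread (log2 change -2.29 ± 0.34, adjusted p = 2.69e-06). The proteolipids of the ring rose in CPM, by changes small enough to depend on the TMM scaling. Atp6v0b had 582, 477 and 377 CPM with LPS, against 383, 341 and 353 CPM without, so that the lowest LPS library lay just under the highest unstimulated library (0.42 ± 0.11, adjusted p = 0.00159). Atp6v0c had 276, 252 and 266 CPM, against 225, 215 and 218 CPM, with no overlap (0.27 ± 0.08, adjusted p = 0.00364). Atp6v0d1, the widely expressed d isoform, had 238, 224 and 181 CPM with LPS and 255, 237 and 223 CPM without, with overlap, and the difference did not pass (-0.15 ± 0.09, adjusted p = 0.131).

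In V1 the stalk subunit Atp6v1e1 had 349, 295 and 233 CPM with LPS, against 185, 180 and 176 CPM without. Every LPS library was above every unstimulated library, and the gene rose by 0.70 ± 0.11 (adjusted p = 9.54e-06). Atp6v1h, the regulatory subunit that holds back ATP hydrolysis in V1 detached from V0, had 160, 156 and 119 CPM with LPS and 110, 111 and 91.4 CPM without (0.48 ± 0.10, adjusted p = 0.000363). Atp6v1a, the subunit that hydrolyses ATP, had 912, 791 and 570 CPM with LPS, against 1039, 967 and 899 CPM without. It fell by 0.35 ± 0.13 on the log2 scale (adjusted p = 0.018), although the highest LPS library overlapped the lowest unstimulated one. Atp6v1b2, the B subunit that pairs with A in the head, and Atp6v1c1, a subunit of the collar between V1 and V0, did not pass (-0.19 ± 0.11, adjusted p = 0.134, and 0.05 ± 0.17, adjusted p = 0.825). In all, edgeR's quasi-likelihood test called 4 of the 10 genes higher with LPS and 3 lower, at an adjusted p under 0.05 over all tested genes, where 30.8% of all tested genes were called higher and 30.1% lower. The median log2 change of the 10 was -0.05, and that of all tested genes -0.01. Without the mouse 3 library of untreated LPS cells Atp6v1a was not called (-0.19, adjusted p = 0.163), nor without the mouse 1 library of untreated unstimulated cells (-0.30, adjusted p = 0.0749), and with only these 2 groups fitted neither Atp6v1a (adjusted p = 0.124) nor Atp6v0b (adjusted p = 0.0576) was called. Without the mouse 1 library of untreated LPS cells, Atp6v0d1 (-0.22, adjusted p = 0.0429) and Atp6v1b2 (-0.28, adjusted p = 0.048) were called lower too.

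Isoforms were also described as shares of a subunit class, computed per kilobase of exon. Such shares depend on each other, so the fall of Atp6v0a1 by itself raises those of the other a isoforms. The a subunit is made from Atp6v0a1, Atp6v0a2, Atp6v0a4 or Tcirg1, the last coding for the a3 isoform of lysosomes and of the osteoclast's acid-secreting membrane. Atp6v0a1 made up 9.0 ± 1.7% of the class with LPS and 34.2 ± 1.42% without in untreated wild-type cells, and Tcirg1 84.9 ± 2.46% with LPS and 63.3 ± 1.40% without. Atp6v0a2 made up 6.10 ± 0.853% and 2.47 ± 0.183%. In each case the libraries of the groups did not overlap. Tcirg1 itself rose by 0.27 ± 0.11 (822, 854 and 642 CPM with LPS, 640, 608 and 678 CPM without, adjusted p = 0.0471) and Atp6v0a2 by 1.13 ± 0.07 (adjusted p = 5.54e-13). Atp6v0d2 made up 7.99 ± 0.674% of the d class with LPS and 27.3 ± 7.63% without.

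**Figure D2:**
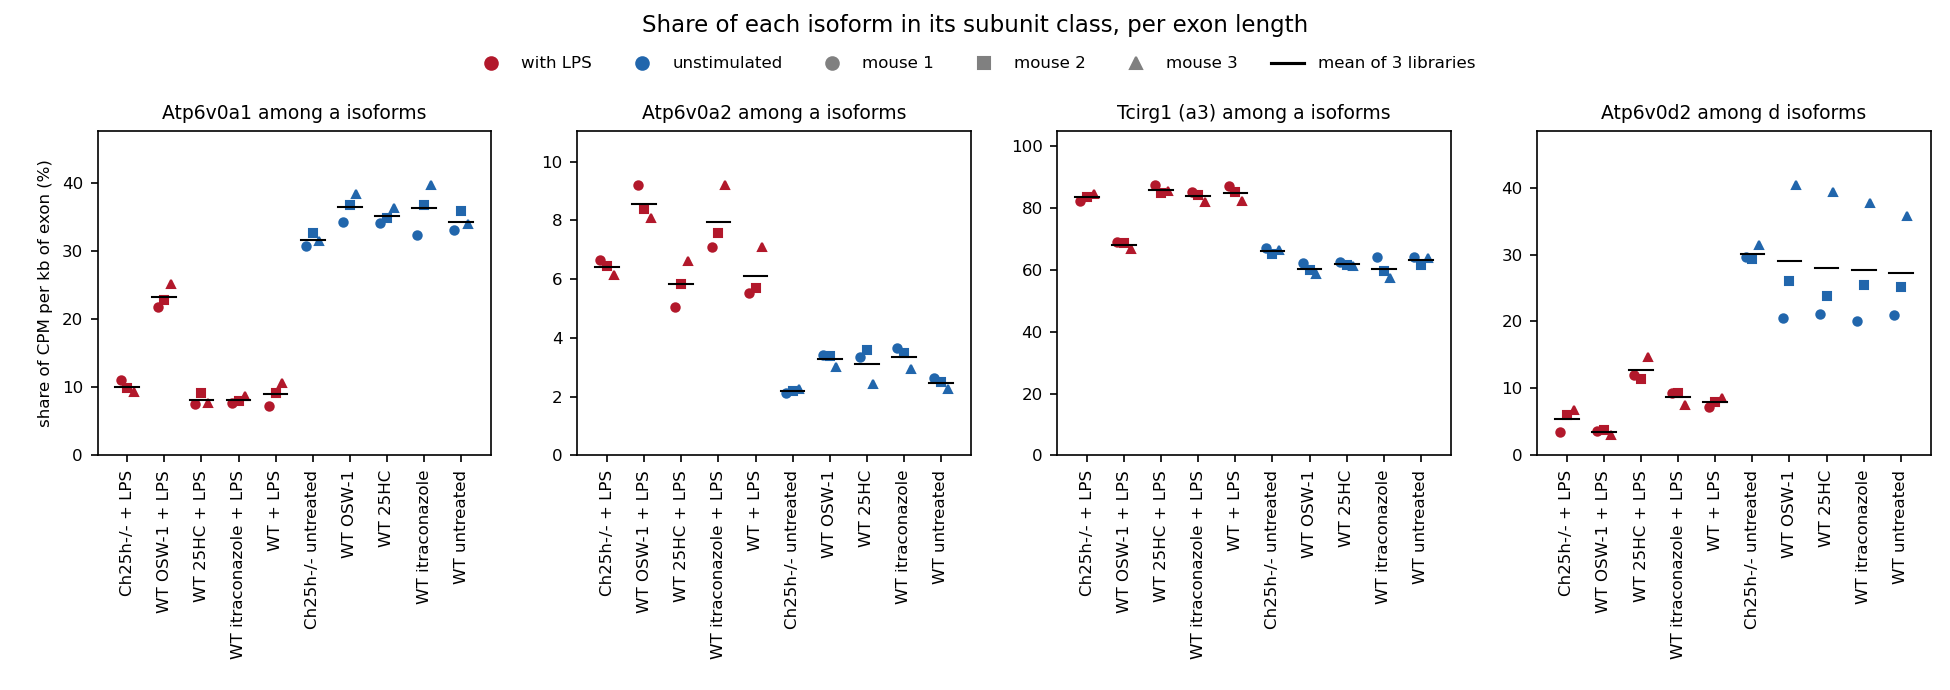
Share of Atp6v0a1, Atp6v0a2 and Tcirg1 among the a isoforms, and of Atp6v0d2 among the d isoforms, in percent of CPM per kb of exon (linear axes from 0), for each library by group, with a marker shape for each mouse and a line at the mean of 3. Atp6v0a1 stands at 23.2% in OSW-1-pretreated LPS cells and 9.0% in untreated LPS cells, and unstimulated wild-type cells spread widely in Atp6v0d2, with mouse 3 on top.

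In Ch25h-/- macrophages 3 of the 10 genes were called higher with LPS and 5 lower, where 28.0% of all tested genes were called higher and 29.2% lower. Atp6v0a1 fell by 2.01 ± 0.14 on the log2 scale (136, 122 and 114 CPM with LPS, against 484, 512 and 504 CPM without, adjusted p = 6.45e-12). Atp6v0d2 had 10.2, 19.0 and 21.5 CPM with LPS, against 143, 143 and 166 CPM without. The groups were far apart, and the fall of 3.16 ± 0.36 on the log2 scale was an 8.92-fold decrease (adjusted p = 4.26e-08). Atp6v1a (-0.72 ± 0.13), Atp6v1b2 (-0.43 ± 0.11) and Atp6v0d1 (-0.27 ± 0.09) also fell, while Atp6v1e1 (0.43 ± 0.11), Atp6v1h (0.40 ± 0.11) and Atp6v0c (0.20 ± 0.08) rose. Atp6v0c lost its call without any of 4 of the 6 libraries (unstimulated mice 1 and 2, LPS mice 2 and 3), at 0.17 to 0.19 and adjusted p of 0.0754 to 0.103, and without the filter on low counts (adjusted p = 0.06). Atp6v1c1 (-0.37 ± 0.17, adjusted p = 0.072) was called lower with the mouse number as a block (-0.39, adjusted p = 0.0342), by limma-voom (adjusted p = 0.0394), with only these 2 groups fitted (adjusted p = 0.0267) and without the mouse 3 LPS library (-0.49, adjusted p = 0.0351).

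Between genotypes the 10 genes gave no call. By the same edgeR test Ch25h, the deleted gene, was not called either. It stood at -4.11 ± 0.95 unstimulated (adjusted p = 0.0941) and -3.66 ± 1.02 with LPS (adjusted p = 0.107). The lack of calls therefore does not show that the genotypes are alike. Among unstimulated cells 0 of 10 passed in Ch25h-/- against wild type, none of them at an unadjusted p under 0.05 either, where 1 gene in the whole table passed (0.00759% of those tested) and 1717 of all 13173 were at an unadjusted p under 0.05. The 95% confidence intervals of the 10 log2 differences lay between -0.53 and 0.80. With LPS 0 of 10 passed by edgeR, where 0.228% of all tested genes passed. At an unadjusted p under 0.05 there were 6 of the 10, and 17.1% of all tested genes. By DESeq2 and by limma-voom 0 of 10 passed in either comparison. Atp6v1c1, at 119, 163 and 179 CPM in Ch25h-/- LPS libraries and 271, 239 and 149 CPM in wild-type LPS libraries, overlapped between genotypes (-0.52 ± 0.17, adjusted p = 0.151). Atp6v0d2 did not overlap (-0.73 ± 0.34, adjusted p = 0.28), at 10.2 to 21.5 CPM in Ch25h-/- and 26.0 to 29.6 CPM in wild-type LPS libraries. Without the wild-type LPS library of mouse 3, which was low in several of these genes, 7 of the 10 were called lower in Ch25h-/- cells. These were Atp6v0b, Atp6v0d1, Atp6v1a, Atp6v1b2, Atp6v1c1, Atp6v1e1 and Atp6v1h, with log2 differences of -0.73 (Atp6v1c1, adjusted p = 0.00295) to -0.26 (Atp6v0d1, adjusted p = 0.0268). That fit called 2396 genes of the whole table in either direction, against 30 in the main fit. The gain in calls was thus not particular to the 10 genes. The LPS response itself, tested as a difference of differences, differed between genotypes for 0 of the 10 genes (0 by DESeq2 and by limma-voom) and for 0% of all tested genes by edgeR. At an unadjusted p under 0.05 there were 2 of the 10, and 11.2% of all tested genes. Without the same mouse 3 library, the response of Atp6v0b (-0.56, adjusted p = 0.0145) and Atp6v1a (-0.54, adjusted p = 0.0392) differed. The share of all genes called in that fit is not given here, so these 2 calls cannot be read as particular to the pump.

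Before LPS, OSW-1 and itraconazole each lowered 3 of the 10 genes, by less than 1.5-fold, and 25HC lowered 0. OSW-1 lowered 3 and raised 0, where 17.2% of all tested genes were called lower and 20.1% higher. They were the ring subunit Atp6v0c (192, 172 and 157 CPM with OSW-1, 225, 215 and 218 CPM untreated, -0.34 ± 0.08, adjusted p = 0.00116), Atp6v1a (774, 695 and 722 CPM with OSW-1, 1039, 967 and 899 CPM untreated, -0.41 ± 0.13, adjusted p = 0.0134) and Atp6v0d1 (207, 191 and 185 CPM with OSW-1, 255, 237 and 223 CPM untreated, -0.29 ± 0.09, adjusted p = 0.00932). For each of them all OSW-1 libraries were below all untreated libraries. Itraconazole lowered 3 and raised 0, where 12.4% of all tested genes were called lower and 14.4% higher. Atp6v1a (-0.57 ± 0.13), Atp6v0d1 (-0.33 ± 0.09) and Atp6v0c (-0.25 ± 0.08) fell (adjusted p = 0.00154, 0.00615 and 0.0165). Atp6v1a stood at 649, 620 and 688 CPM with itraconazole, under all untreated libraries. These comparisons share their untreated libraries. 25HC lowered 0 and raised 1, Atp6v1h, where 12.8% of all tested genes were called lower and 15.9% higher. Atp6v1h had 134, 134 and 119 CPM with 25HC, against 110, 111 and 91.4 CPM untreated, without overlap (0.31 ± 0.10, adjusted p = 0.0278). Atp6v0d1, at 200, 204 and 207 CPM with 25HC, was also below every untreated library (-0.22 ± 0.09, adjusted p = 0.0528), and passed in 6 of the 7 other fits of all libraries or of these groups. These were the mouse number as a block (-0.22, adjusted p = 0.0225), DESeq2 (-0.25, adjusted p = 0.0153), limma-voom (adjusted p = 0.027), RLE size factors (adjusted p = 0.0275), halved even counts (adjusted p = 0.0468) and only these 2 groups fitted (adjusted p = 0.0326). It passed too without the untreated mouse 3 library (-0.27, adjusted p = 0.0474).

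Single libraries decided part of these calls before LPS. The Atp6v1h call with 25HC was lost without the untreated mouse 3 library (0.22, adjusted p = 0.169) and without the 25HC library of mouse 1 or mouse 2 (0.28 each, adjusted p = 0.096 and 0.101), and without that of mouse 3 Atp6v1a was called lower (-0.36, adjusted p = 0.0423). With OSW-1, only Atp6v0c stayed called without the untreated mouse 1 library (Atp6v0d1 -0.24, adjusted p = 0.0573, and Atp6v1a -0.35, adjusted p = 0.0606), and without the OSW-1 mouse 2 library Atp6v1a was not called (-0.37, adjusted p = 0.0552). With itraconazole, Atp6v0c was not called without the untreated mouse 1 library (-0.23, adjusted p = 0.0603) or the itraconazole mouse 2 library (-0.19, adjusted p = 0.121), and Atp6v0a1 was called lower without the itraconazole mouse 3 library (-0.37, adjusted p = 0.0494).

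Among LPS-treated cells OSW-1 changed 7 of the 10 genes, 5 lower and 2 higher, where 37.1% of all tested genes were called lower and 34.3% higher. The median log2 change of the 10 was -0.36, and that of all tested genes -0.06. In V1, Atp6v1a had 425, 397 and 415 CPM with OSW-1 and LPS, against 912, 791 and 570 CPM with LPS alone. The groups did not overlap, and the gene fell by 0.88 ± 0.13 on the log2 scale, 1.84-fold (adjusted p = 1.07e-06). Atp6v1e1 had 196, 204 and 231 CPM, against 349, 295 and 233 CPM (-0.47 ± 0.11, adjusted p = 0.000604). Atp6v1h went the other way, with 210, 207 and 195 CPM, above all of the 160, 156 and 119 CPM with LPS alone (0.50 ± 0.10, adjusted p = 0.00016). In V0, the ring genes Atp6v0c (178, 186 and 183 CPM, against 276, 252 and 266 CPM with LPS alone, -0.54 ± 0.08, adjusted p = 8.68e-07) and Atp6v0b (346, 333 and 359 CPM, against 582, 477 and 377 CPM, -0.47 ± 0.11, adjusted p = 0.000364) fell, with no overlap. Atp6v0d2 had 11.9, 12.4 and 10.1 CPM, under all of the 28.4, 29.6 and 26.0 CPM with LPS alone (-1.29 ± 0.35, adjusted p = 0.00199). Atp6v0a1 was higher, at 174, 177 and 194 CPM, against 98.1, 130 and 118 CPM (0.65 ± 0.14, adjusted p = 0.000134). All 7 calls held with every other setting tried, and without the mouse 3 library of untreated LPS cells Atp6v1c1 was called lower as well (-0.46, adjusted p = 0.0128). All 6 macrophage markers had lower levels in the same OSW-1 and LPS libraries, from Csf1r at 1298 to 1667 CPM, against 1799 to 2443 CPM with LPS alone, to Mertk at 1.44 to 2.44 CPM, against 70.4 to 113 CPM. Their part in the result was not tested.

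Itraconazole lowered 4 of the 10 genes among LPS-treated cells and raised 0, where 27.9% of all tested genes were called lower and 26.5% higher. Atp6v1a had 625, 565 and 480 CPM with itraconazole and LPS, against 912, 791 and 570 CPM with LPS alone, with overlap (-0.44 ± 0.13, adjusted p = 0.00457). Atp6v0c had 216, 222 and 220 CPM, against 276, 252 and 266 CPM, with none (-0.27 ± 0.08, adjusted p = 0.00422). Atp6v0a1 (95.0, 92.5 and 80.0 CPM, against 98.1, 130 and 118 CPM, -0.37 ± 0.14, adjusted p = 0.0238) and Atp6v0b (-0.31 ± 0.11, adjusted p = 0.0156) were the others. When only these 2 groups were fitted, 0 of the 4 passed (adjusted p of 0.0546 to 0.166), and single LPS libraries decided 3 of them. Atp6v0a1 was lost without untreated mouse 2 (-0.28, adjusted p = 0.127), untreated mouse 3 (-0.35, adjusted p = 0.0564) or itraconazole mouse 3 (-0.30, adjusted p = 0.0988), Atp6v0b without untreated mouse 1 (-0.16, adjusted p = 0.187) or itraconazole mouse 1 (-0.28, adjusted p = 0.0635), and Atp6v1a without untreated mouse 1 (-0.30, adjusted p = 0.0514). Without untreated mouse 3, Atp6v1b2 and Atp6v1e1 were called lower (-0.28 each, adjusted p = 0.0284 and 0.0297). Atp6v1h (0.22 ± 0.10, adjusted p = 0.0789) was called higher with the mouse number as a block (adjusted p = 0.023), by limma-voom (adjusted p = 0.0409), without untreated mouse 1 (0.29, adjusted p = 0.0387) and without itraconazole mouse 3 (0.33, adjusted p = 0.0112).

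25HC changed 0 of the 10 genes among LPS-treated cells by edgeR, 0 by DESeq2 and 0 by limma-voom, where edgeR called 20.8% of all tested genes higher and 21.0% lower. At an unadjusted p under 0.05 there were 2 of the 10, and 49.3% of all tested genes. Atp6v0d2 came nearest on the higher side. It had 46.5, 42.9 and 49.1 CPM with 25HC and LPS, all above the 28.4, 29.6 and 26.0 CPM with LPS alone (0.72 ± 0.33, adjusted p = 0.0838), and it passed with the mouse number as a block (0.71, adjusted p = 0.0462) and when only these 2 groups were fitted (0.73, adjusted p = 0.00321). Atp6v1a, at 655, 614 and 600 CPM with 25HC and LPS (-0.28 ± 0.13, adjusted p = 0.0751), was called lower without the mouse 3 library of untreated LPS cells (-0.45, adjusted p = 0.00292). The 95% confidence intervals of the other 8 log2 differences lay between -0.31 and 0.55.

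**Figure D3:**
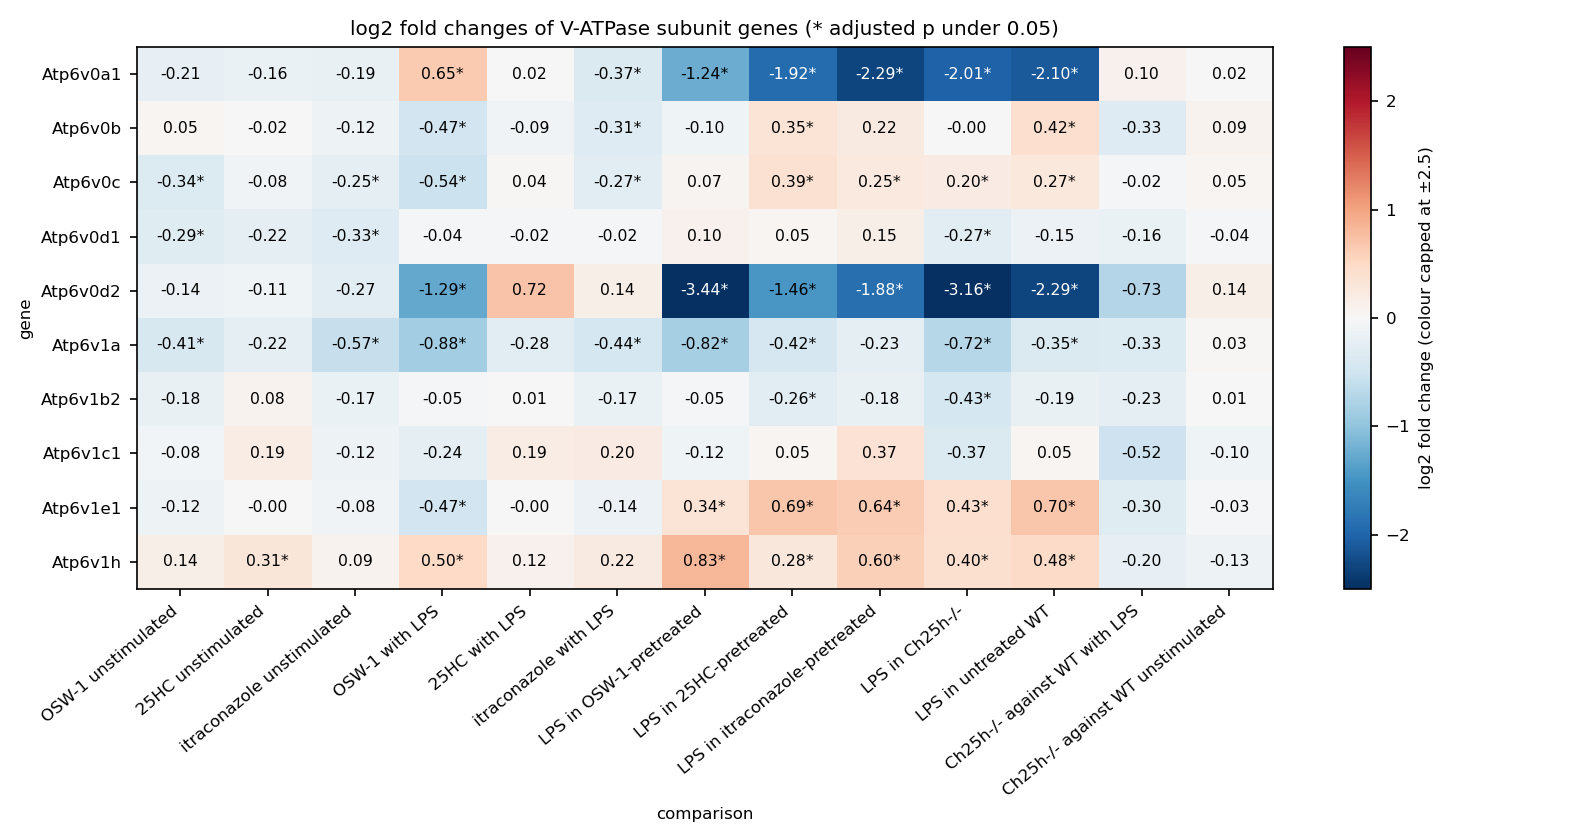
Log2 fold changes of the 10 V-ATPase genes (rows) in 13 comparisons (columns), written in each cell and shown by colour (red higher, blue lower, capped at 2.5), with an asterisk at an adjusted p under 0.05 by edgeR's quasi-likelihood test. Atp6v0a1 and Atp6v0d2 are blue in all 5 LPS columns, and the columns between genotypes hold no asterisk.

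In OSW-1-pretreated cells LPS raised 2 of the 10 genes and lowered 3, where 34.8% of all tested genes were called higher and 36.6% lower. Atp6v0d2 fell to 11.9, 12.4 and 10.1 CPM with LPS, against 80.8, 102 and 190 CPM in unstimulated OSW-1 cells, a 10.8-fold decrease (-3.44 ± 0.37, adjusted p = 7.03e-09). Atp6v0a1 fell to 174, 177 and 194 CPM, against 386, 419 and 481 CPM (-1.24 ± 0.14, adjusted p = 1.33e-08), and Atp6v1a by 0.82 ± 0.13 (adjusted p = 2.76e-06). Atp6v1h rose by 0.83 ± 0.11 (adjusted p = 1.29e-07), with 210, 207 and 195 CPM against 113, 116 and 115 CPM. Atp6v1e1 rose by 0.34 ± 0.11 (adjusted p = 0.00954), a call lost without the unstimulated OSW-1 mouse 1 library (0.28, adjusted p = 0.0546) or the OSW-1 LPS mouse 3 library (0.27, adjusted p = 0.0597).

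Set against the LPS response of untreated wild-type cells, the response after OSW-1 differed for 5 of the 10 genes, a share close to the 51.7% of all tested genes that differed. Atp6v0a1 fell less (difference 0.86 ± 0.19, adjusted p = 0.000551), and the rise of Atp6v0b was not seen (-0.52 ± 0.15, adjusted p = 0.00573). These 2 differences passed with every setting tried. Atp6v1h rose more (0.36 ± 0.15, adjusted p = 0.0467), and Atp6v1a (-0.47 ± 0.18, adjusted p = 0.0299) and Atp6v0d2 (-1.15 ± 0.47, adjusted p = 0.0459) fell more. These 3 stood near the threshold. The Atp6v0d2 difference was lost by DESeq2 (adjusted p = 0.0549), by limma-voom (adjusted p = 0.0596) and without any of 9 of the 12 libraries: all 6 with LPS, untreated mice 1 and 2, and unstimulated OSW-1 mouse 3 (adjusted p of 0.0504 to 0.208, smallest difference -0.71 without OSW-1 mouse 3). The Atp6v1h difference was lost without any of 8 libraries (untreated mice 1 and 2, all 3 unstimulated OSW-1 mice, untreated LPS mouse 3, and OSW-1 LPS mice 1 and 2, at 0.23 to 0.36 and adjusted p of 0.065 to 0.159). The Atp6v1a difference was lost without any of 5 (untreated mouse 3, OSW-1 mouse 1, untreated LPS mice 1 and 2, and OSW-1 LPS mouse 2, at -0.44 to -0.32 and adjusted p of 0.0598 to 0.118). Fitted with the compared groups alone, Atp6v1a (adjusted p = 0.0697) and Atp6v1h (adjusted p = 0.0811) did not pass, nor did Atp6v1h without the filter on low counts (adjusted p = 0.0686). Atp6v0d1 (0.25 ± 0.12, adjusted p = 0.0853) was called with the mouse number as a block (0.26, adjusted p = 0.0352), by DESeq2 (adjusted p = 0.0454), by limma-voom (adjusted p = 0.0431) and without untreated LPS mouse 1 (0.33, adjusted p = 0.0284). Among the rest, Atp6v0c (-0.20 ± 0.11, adjusted p = 0.125) was called without OSW-1 mouse 3 (-0.27, adjusted p = 0.0464), and Atp6v1e1 (-0.35 ± 0.16, adjusted p = 0.0658) without OSW-1 mouse 1, untreated LPS mouse 3 or OSW-1 LPS mouse 3 (-0.50 to -0.42, adjusted p of 0.00546 to 0.0425).

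**Figure D4:**
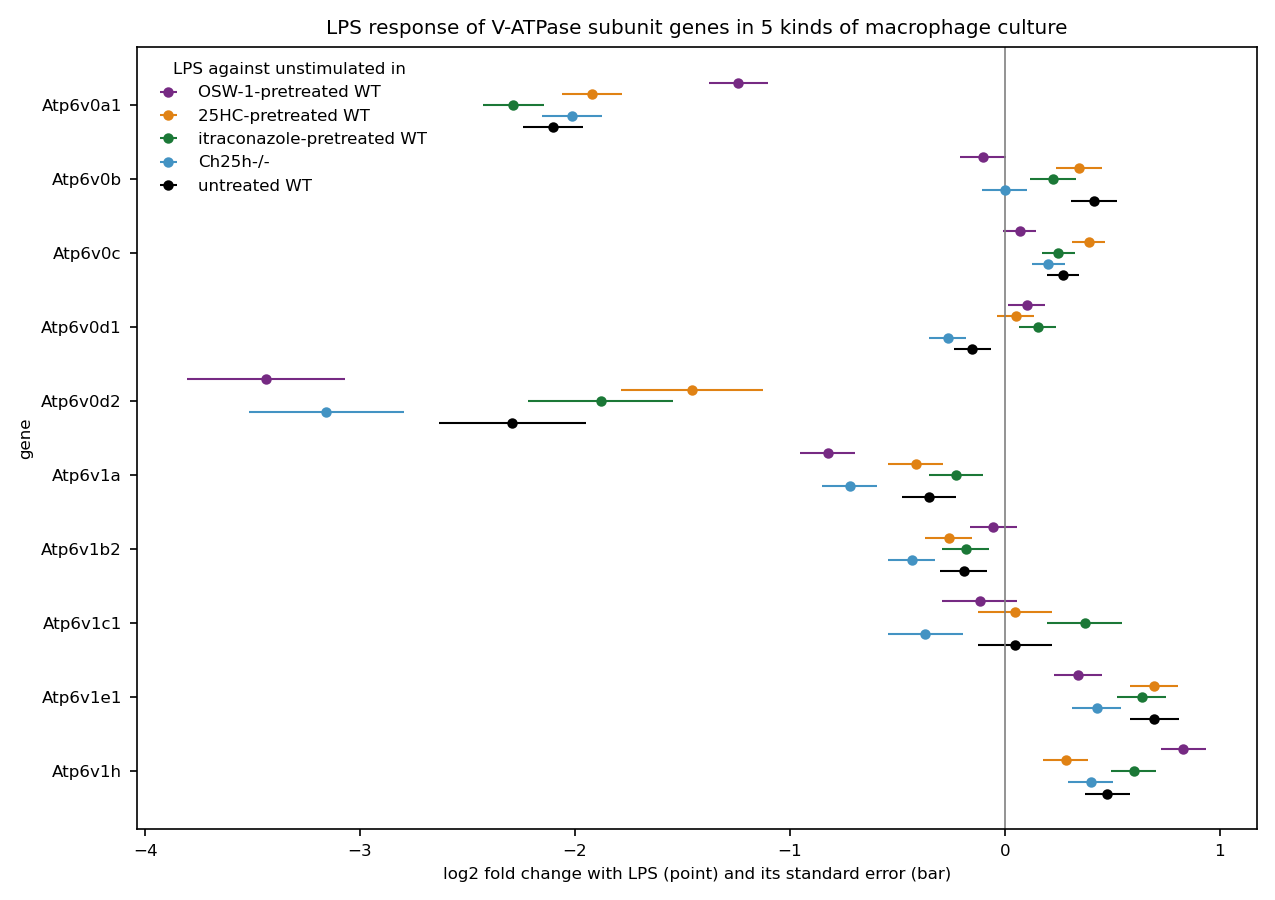
Log2 fold change with LPS against no LPS (x axis, points with standard error bars) of the 10 V-ATPase genes (y axis) in OSW-1-, 25HC- and itraconazole-pretreated wild-type, Ch25h-/- and untreated wild-type macrophages. After OSW-1, Atp6v0a1 lies at -1.24, against -2.10 in untreated wild-type cells, and Atp6v1h at 0.83, against 0.48.

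After 25HC, LPS raised 4 of the 10 genes (Atp6v0b, Atp6v0c, Atp6v1e1 and Atp6v1h) and lowered 4 (Atp6v0a1, Atp6v0d2, Atp6v1a and Atp6v1b2), where 30.6% of all tested genes were called higher and 33.3% lower. Atp6v0d2 had 46.5, 42.9 and 49.1 CPM with LPS, against 80.8, 96.4 and 203 CPM in unstimulated 25HC cells (-1.46 ± 0.33, adjusted p = 0.000464). The count of called genes was 5 without the unstimulated mouse 3 library, where Atp6v1a, Atp6v1b2 and Atp6v1h were lost (-0.28, -0.19 and 0.23, adjusted p = 0.0685, 0.182 and 0.0994). Atp6v1b2 (-0.26 ± 0.11, adjusted p = 0.039) was also lost with the mouse number as a block (adjusted p = 0.0528) and without LPS mouse 1 (-0.29, adjusted p = 0.0504) or mouse 3 (-0.21, adjusted p = 0.143), and Atp6v1h without LPS mouse 2 (0.23, adjusted p = 0.0986). The response after 25HC differed from that of untreated cells for 0 of the 10 genes by edgeR, by DESeq2 and by limma-voom, where 12.3% of all tested genes differed by edgeR. At an unadjusted p under 0.05 there were 0 of the 10, and 27.8% of all tested genes. The 95% confidence interval for Atp6v0d2 ran from -0.12 to 1.79, and without the unstimulated 25HC mouse 3 library this gene passed (1.35, adjusted p = 0.0423).

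After itraconazole, LPS raised 3 of the 10 genes (Atp6v0c, Atp6v1e1 and Atp6v1h) and lowered 2 (Atp6v0a1 and Atp6v0d2), where 33.4% of all tested genes were called higher and 33.6% lower. Atp6v0a1 fell by 2.29 ± 0.14 on the log2 scale (adjusted p = 4.12e-13), to 95.0, 92.5 and 80.0 CPM, against 359, 406 and 540 CPM in unstimulated itraconazole cells. Atp6v0c was lost without the unstimulated mouse 2 library (0.19, adjusted p = 0.0541), and Atp6v0b was called higher with only these 2 groups fitted (0.22, adjusted p = 0.0301). Atp6v1c1 (0.37 ± 0.17, adjusted p = 0.0616) was called with the mouse number as a block (0.35, adjusted p = 0.0477) and without LPS mouse 3 (0.55, adjusted p = 0.00653). The response differed from that of untreated cells for 0 of the 10 genes by edgeR and by DESeq2, where 26.3% of all tested genes differed by edgeR. At an unadjusted p under 0.05 there was 1 of the 10, and 38.0% of all tested genes. That gene, Atp6v0d1 (0.31 ± 0.12, adjusted p = 0.0667), passed by limma-voom (adjusted p = 0.0311), with the mouse number as a block (adjusted p = 0.0266) and without untreated LPS mouse 1 (0.38, adjusted p = 0.0262) or itraconazole LPS mouse 3 (0.36, adjusted p = 0.0329).

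The compounds were also set against each other, in 3 pairs before LPS and 3 pairs with it, all for the same 18 h but at different doses (0.3 µM OSW-1, 5 µM 25HC, 1 µM itraconazole). Before LPS 0 of the 10 genes differed by edgeR in any pair. Of all tested genes 2.83% differed for OSW-1 against 25HC, 6.33% for OSW-1 against itraconazole and 0.235% for 25HC against itraconazole. At an unadjusted p under 0.05 there were 2 of the 10 (16.9% of all tested genes) for OSW-1 against 25HC, 0 (20.9%) for OSW-1 against itraconazole and 3 (7.58%) for 25HC against itraconazole. The 95% confidence intervals of these log2 differences lay within -0.69 and 0.83, the widest for Atp6v0d2, so changes of that size cannot be told from none. For Atp6v0c, OSW-1 against 25HC stood at -0.25 ± 0.08 (adjusted p = 0.0705) and passed by DESeq2 (adjusted p = 0.0169), by limma-voom (adjusted p = 0.0283), with the mouse number as a block (adjusted p = 0.039) and without the 25HC mouse 3 library (-0.32, adjusted p = 0.0377). DESeq2 and limma-voom called 0 in the other 2 pairs before LPS.

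With LPS, OSW-1 against 25HC differed for 8 of the 10 genes, where 58.7% of all tested genes differed. Atp6v0d2 was lower by 2.01 ± 0.35 on the log2 scale (11.9, 12.4 and 10.1 CPM with OSW-1, 46.5, 42.9 and 49.1 CPM with 25HC, adjusted p = 2.72e-05), and Atp6v0c (-0.57 ± 0.08), Atp6v1a (-0.59 ± 0.13), Atp6v1e1 (-0.47 ± 0.11), Atp6v1c1 (-0.43 ± 0.17) and Atp6v0b (-0.38 ± 0.11) were lower too, while Atp6v0a1 (0.64 ± 0.14) and Atp6v1h (0.38 ± 0.10) were higher. The Atp6v1c1 call (adjusted p = 0.0345) was lost without any 1 of the 3 OSW-1 libraries or of 25HC mice 1 and 2 (-0.46 to -0.38, adjusted p of 0.0569 to 0.104). The intervals of Atp6v0d1 (-0.20 to 0.16) and Atp6v1b2 (-0.29 to 0.16) included no difference. OSW-1 against itraconazole differed for 7 of the 10, where 48.6% of all tested genes differed. Atp6v0a1 was higher by 1.02 ± 0.14 (adjusted p = 1.27e-06), with 174, 177 and 194 CPM with OSW-1 and 95.0, 92.5 and 80.0 CPM with itraconazole. Atp6v1h (0.28 ± 0.10) was higher, and Atp6v0d2 (-1.43 ± 0.35), Atp6v1c1 (-0.45 ± 0.17), Atp6v1a (-0.43 ± 0.13), Atp6v1e1 (-0.33 ± 0.11) and Atp6v0c (-0.27 ± 0.08) were lower. The count was 4 without OSW-1 mouse 1 or mouse 2, where Atp6v1c1, Atp6v1e1 and Atp6v1h were lost (adjusted p of 0.0602 to 0.0887). Atp6v1c1 was also lost without OSW-1 mouse 3 or itraconazole mouse 1 or 2 (adjusted p of 0.0647 to 0.287), Atp6v1e1 without itraconazole mouse 1 (-0.29, adjusted p = 0.0629) and Atp6v1h without itraconazole mouse 3 (0.17, adjusted p = 0.211). With only these 2 groups fitted, Atp6v1c1 (adjusted p = 0.0748) and Atp6v1h (adjusted p = 0.0796) did not pass. 25HC against itraconazole differed for 1 of the 10, where 6.54% of all tested genes differed. This was Atp6v0c, at 286, 270 and 258 CPM with 25HC and 216, 222 and 220 CPM with itraconazole (0.31 ± 0.08, adjusted p = 0.0188), a call lost without 25HC mouse 1 (0.27, adjusted p = 0.138) or itraconazole mouse 1 (0.30, adjusted p = 0.0625) or mouse 2 (0.32, adjusted p = 0.0607), and with only these 2 groups fitted (adjusted p = 0.162). Atp6v0a1 was called higher as well by DESeq2 (0.40, adjusted p = 0.0493) and without 25HC mouse 3 (0.50, adjusted p = 0.0381).

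Atp6v0d2 varied with the mouse before LPS. In unstimulated wild-type cells mouse 3 had 2.07 times the mean of mice 1 and 2 with OSW-1, 2.29 times with 25HC, 1.94 times with itraconazole and 1.68 times untreated. With LPS the same ratio was 0.836 with OSW-1, 1.10 with 25HC, 0.703 with itraconazole and 0.896 untreated. The mouse 3 library was thus the highest in all 4 unstimulated groups. With LPS it was the lowest of its group with OSW-1, with itraconazole and untreated, and the highest with 25HC. The difference between mice was not tested.

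**Figure D5:**
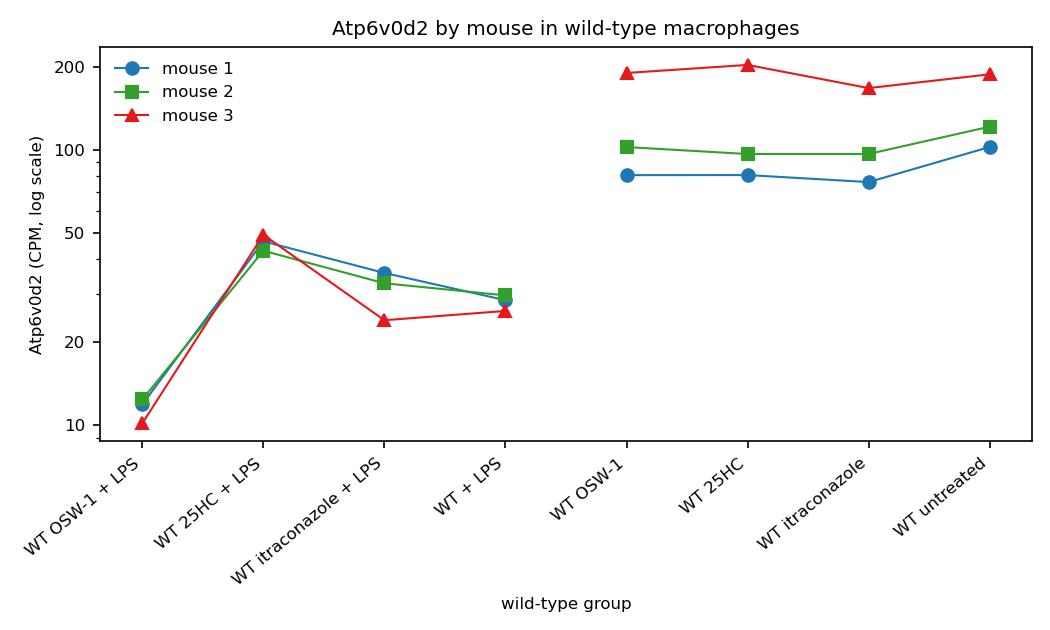
Level of Atp6v0d2 in CPM (log scale) in the 8 wild-type groups, LPS groups left of unstimulated groups, with a line for each of 3 mice. Mouse 3 lies at 167 to 203 CPM in the unstimulated groups, above the other mice, and at 10.1 to 49.1 CPM with LPS, below the other mice in 3 groups and above them with 25HC.

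Other subunits of the pump were followed from a list of 15 genes, of which 10 were tested. With LPS in untreated wild-type cells 5 rose and 2 fell, where 30.8% of all tested genes were called higher and 30.1% lower: Atp6v0a2, Atp6v0e (0.68 ± 0.11), a small V0 subunit, Atp6v1d (0.52 ± 0.11), the central stalk of V1, Atp6v1f (0.36 ± 0.11) and Tcirg1 rose, and Atp6v1g2 (-0.86 ± 0.27) and the accessory subunit Atp6ap2 (-0.19 ± 0.08) fell. The other accessory subunit, Atp6ap1, did not pass (0.16 ± 0.08, adjusted p = 0.0845). OSW-1 among LPS-treated cells lowered 7 of the 10 and raised 0, where 37.1% of all tested genes were called lower and 34.3% higher, led by Atp6v0e (-1.10 ± 0.11, adjusted p = 4.4e-09), Atp6ap1 (-0.74 ± 0.08), Tcirg1 (388, 374 and 362 CPM, against 822, 854 and 642 CPM with LPS alone, -1.04 ± 0.12, adjusted p = 1.52e-08) and Atp6v1d (-0.97 ± 0.11). Atp6v0a1 then made up 23.2 ± 1.73% of the a class with OSW-1 and LPS and 9.0 ± 1.7% with LPS alone, with no overlap. Itraconazole lowered 5 of the 10 among LPS-treated cells and raised 0 (27.9% and 26.5% of all tested genes), with Atp6ap1 at -0.41 ± 0.08 (adjusted p = 0.000113). 25HC lowered 2 and raised 0 (21.0% and 20.8% of all), Atp6ap1 (-0.30 ± 0.08, adjusted p = 0.00426) and Atp6v0e (-0.30 ± 0.11, adjusted p = 0.0349). Before LPS, OSW-1 lowered 2 of the 10 (Atp6v1g1 at -0.37 ± 0.10 and Tcirg1 at -0.37 ± 0.12), where 17.2% of all tested genes were called lower. Itraconazole lowered 1 (Tcirg1, -0.35 ± 0.12), against 12.4% of all, and 25HC 0, against 12.8% of all. With 25HC 0 of the 10 were at an unadjusted p under 0.05 by edgeR, against 39.4% of all tested genes.

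The counts of the next lists are to be set against the same shares of all tested genes, 30.8% higher and 30.1% lower with LPS in untreated wild-type cells, and 34.3% higher and 37.1% lower for OSW-1 among LPS-treated cells. Of 11 tested genes that assemble or regulate the pump, LPS raised 4 and lowered 2. Dmxl2, a homologue of the RAVE assembly factor of yeast, rose by 2.22 ± 0.14 (adjusted p = 5.08e-13) and the V0 assembly factor Tmem199 by 0.88 ± 0.14, while the chaperone Vma21 fell by 0.82 ± 0.12 on the log2 scale. OSW-1 among LPS-treated cells lowered 7 of these 11 and raised 3, with Tmem9 at -4.28 ± 0.28 (adjusted p = 1.27e-12), Oxr1 at -1.31 ± 0.10 and Dmxl2 at -1.01 ± 0.13. Of 12 lysosomal ion channels and exchangers tested, LPS raised 5 and lowered 5, among them the chloride-proton exchanger Clcn7 (1.06 ± 0.14) and the cation channel Tpcn1 (-1.90 ± 0.17). OSW-1 with LPS lowered 10 and raised 1 of the 12. The partner of Clcn7, Ostm1, stood at -1.96 ± 0.10 (adjusted p = 2.1e-14). Of a list of 10 genes that held the subunits of the Ragulator complex, which docks on the pump, the Rag GTPases and the amino acid transporter Slc38a9, LPS raised 1 and lowered 3, with Rragb at -3.62 ± 0.43 (adjusted p = 8.7e-08). OSW-1 with LPS lowered 7 and raised 2, with Lamtor4 at -2.28 ± 0.21 and Rraga at 1.00 ± 0.11. Of 10 tested genes of osteoclasts and macrophage fusion, where Atp6v0d2 is best known, LPS raised 2 (Acp5 at 3.62 ± 0.43 and Mitf at 1.16 ± 0.14) and lowered 3, among them Itgb3 (-3.24 ± 0.46) and Nfatc1 (-0.66 ± 0.09). OSW-1 with LPS lowered 8 and raised 2. The osteoclast markers themselves were low, with a summed level of 14.9 to 118 CPM per library over 6 genes.

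Across the 30 libraries the 10 genes did not move as a single block. As a description over libraries that share mice and treatments, the highest Pearson correlation of log2 CPM was 0.81 between Atp6v0a1 and Atp6v0d2, and the lowest was -0.86 between Atp6v0a1 and Atp6v1e1. The genes outside the 10 with the profile most like their mean were Anxa4 (0.93), Acadl (0.86), Nhlrc3 (0.84), Spata6 (0.81) and the V1 stalk subunit Atp6v1g1 (0.81). Those most like Atp6v0d2 were Lgals3 (0.96), Qpct, Lta4h, Nusap1 and Rassf3 (0.94 each). Group means spanned 13.2-fold for Atp6v0d2, 5.61-fold for Atp6v0a1, 2.40-fold for Atp6v1a and 2.14-fold for Atp6v1h, and 1.26- to 1.76-fold for the other 6 genes.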

How the data were processed

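Counts per gene in 30 libraries were deposited by the authors as raw whole numbers. Per the submitters' processing notes, FastQC 0.11.9, GSNAP, featureCounts, Subread 1.5.2 and edgeR 3.26.8 were used, with builds GRCm38 and mm10. The annotation release and the strand setting are not given in the sources used here, and the kit is stranded per the labels' protocols. Exon lengths and positions are from GENCODE vM21 (GRCm38), which matched 30126 of 30538 identifiers.

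The deposited counts were scaled by TMM, and filterByExpr with 10 as the minimum count chose the genes tested. A single edgeR 4.0.16 quasi-likelihood fit in R 4.3.3 held all 10 groups of 3, and 23 comparisons were tested with Benjamini-Hochberg adjustment over 13173 genes and a threshold of 0.05. SE is the log2 change divided by the square root of F. The correlations of log2 CPM used a prior count of 2. Depth was 23656860 to 43922154 counts per library. On simulated counts with 200 changed genes, the test found 74% of 2-fold and 54% of 1.5-fold changes for LPS in untreated wild-type cells, 82 and 52% for OSW-1 before LPS, and 61 and 26% for the difference in LPS response after OSW-1, with 5, 2 and 2 false calls.

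The labels number the mice within each genotype, and this number was taken as the animal. With each group's mean subtracted, 24 of 24 libraries of wild-type mice and 6 of 6 of Ch25h-/- mice were closest to their own number, although 36 of 84 and 1 of 3 pairs with the same number had a correlation over 0.1 (medians 0.0865 and 0.0906). The main fit held no term for the mouse, so its p-values treat libraries of the same mouse as independent. They measure the spread between libraries within groups, pooled over all groups.

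Alternatives were RLE size factors, no filter, halved even counts, the mouse number as a block, the compared groups alone, DESeq2 1.42.0, limma-voom (limma 3.58.1) with the animal as a random effect, and leaving out each library. The members and gene lists were chosen with earlier results of these data known. Named are all 10 genes, up to 4 per list with the smallest p, Tcirg1, Atp6ap1 and Atp6ap2, and the 5 genes most like each profile. For LPS in untreated wild-type cells, all other subunits called were named. Figures used Python 3.11.15 and matplotlib 3.10.9.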

Additional observations from a re-analysis of the deposited data

Results flagged for a closer look

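By a test of the difference of log2 responses in edgeR, the LPS response after OSW-1 differed from that of untreated wild-type macrophages for 5 of the 10 genes, a share close to the 51.7% of all tested genes that differed. Each value is the response after OSW-1 minus the response without it. The difference was 0.86 for Atp6v0a1 and -0.52 for Atp6v0b, and both passed with every setting tried. It was 0.36 for Atp6v1h, -0.47 for Atp6v1a and -1.15 for Atp6v0d2, and these 3 lost their call under some alternatives. The Atp6v0d2 difference did not pass by DESeq2 (adjusted p = 0.0549), by limma-voom (adjusted p = 0.0596) or without any of 9 of the 12 libraries, where it was as small as -0.71.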

How the results depend on the processing

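Over 23 comparisons no called value of the 10 genes reversed. Calls were the same for 229 of 230 values with RLE size factors, 228 with no filter, 229 with halved even counts, 225 with DESeq2, 223 with limma-voom and 215 with the compared groups alone, and for 201 of 210 with the mouse number as a block and 1518 of 1620 when a library was left out. The counts that follow are given without the share of all genes called under each setting. Their shifts therefore cannot be read as particular to the 10 genes. The number of the 10 genes called with 25HC before LPS was 1, and 2 with DESeq2, RLE size factors, halved counts, limma-voom, the block or the compared groups alone. With 25HC and LPS it was 0, and 1 with the block or the compared groups alone. With itraconazole and LPS it was 4, with 5 by limma-voom or with the block and 0 with the compared groups alone. For 25HC against itraconazole with LPS it was 1, with 2 by DESeq2 and 0 in the compared groups alone. For OSW-1 against 25HC before LPS it was 0, and 1 with DESeq2, limma-voom or the block. For the difference in LPS response after OSW-1 it was 5, with 4 without the filter, 6 with the block and 3 in the compared groups alone, and after itraconazole it was 0, and 1 with limma-voom or the block. With a library left out, these counts ranged from 0 to 2 for 25HC before LPS, 0 to 1 for 25HC with LPS, 0 to 2 for 25HC against itraconazole with LPS, 0 to 1 for OSW-1 against 25HC before LPS, 2 to 5 for the response after OSW-1, 0 to 1 after itraconazole and 0 to 1 after 25HC. They ranged from 0 to 2 for the response of Ch25h-/- cells, 0 to 7 for Ch25h-/- against wild type with LPS, 5 to 8 for LPS after 25HC, 4 to 6 for OSW-1 against itraconazole with LPS and 1 to 3 for OSW-1 before LPS. The compared groups alone leave fewer libraries to estimate the spread, and with them 11 calls were lost and 4 gained. The causes of the changes under any setting were not tested. The block changed no call of these genes beyond the 9 given above, and could not be fitted to comparisons between genotypes, whose mice differ. Only 3 libraries per group and, for Atp6v0d2, a wide spread between mice limit the precision. OSW-1 with LPS and genotype cannot be told apart from the difference in depth and odd counts between libraries.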
